A study of Mus musculus with 8 samples.

Results

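The interferon-stimulated genes are a set of mouse genes whose transcription rises when a cell senses type I or type II interferon, and 43 of them were examined here in B, T and myeloid cells of the spleen. The 43 members were given as a list of names, and 42 of them were found by symbol among the 32285 genes of the count tables. Mx1 was not matched by symbol and was not analysed here. The genotypes were compared at 2 months of age. The cKO mice were Eif3e fl/fl Cγ1Cre Rosa26-YFP LSL animals, and the controls, which the labels call littermates, were Cγ1Cre Rosa26-YFP LSL animals. Eif3e encodes a subunit of the translation initiation factor eIF3. Both genotypes carried the Cre and the reporter, so these alleles did not differ between the genotypes. The total libraries were not sorted for YFP, and the study reports that Cre had acted in few splenic B cells of young mice. Cγ1Cre is switched on with transcription of the Ig γ1 constant region, which happens in B cells after activation, and YFP then marks the cell and its offspring. Each of the 8 droplet 3′ single-cell libraries held cells of 2 to 3 pooled mice, as total live splenocytes or as YFP+ sorted cells, with 2 libraries for each of the 4 pairings of genotype and sort. The library numbers 1 and 2 are the batch numbers of the labels, and the total and YFP+ libraries of 1 genotype and batch are taken as cells of the same pool.

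Interferons act through receptors that activate JAK kinases, which pass the signal to transcription factors. Type I interferon acts mainly through the interferon-stimulated response element (ISRE) in the promoters of its target genes, and type II interferon mainly through the gamma-activated site (GAS). The genes switched on include the IFIT proteins, which bind foreign RNA, the ubiquitin-like modifier ISG15 and its protease USP18, the 2′-5′ oligoadenylate synthetases (OAS), the sensors of cytosolic RNA and DNA, and the guanylate-binding proteins (GBP) and immunity-related GTPases (IRG), which act on vacuoles that hold pathogens. In the spleen, most cell types can respond, and plasmacytoid dendritic cells (pDC) are known as a potent source of type I interferon.

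The libraries held 9276 to 11652 cells after filtering, with 71894780 to 105224903 UMIs each and a median of 5250 to 6810.5 UMIs per cell. No pair of libraries shared more than 102 cell barcodes. Immunoglobulin transcripts took 8.52% and 7.41% of the UMIs in the control YFP+ libraries and 1.37% to 2.21% in the other 6 libraries. Eif3e was counted at 3′ ends, and the sources used here do not name its deleted part, so its level does not check the genotype labels. It was 274 and 298 CPM in control and 156 and 164 CPM in cKO YFP+ pre-GCB-like cells, 203 and 265 against 293 and 365 CPM in YFP+ naive B-like cells, and 265 and 298 against 267 and 305 CPM in YFP+ GCB-like cells. Of these 3 YFP+ B cell classes, the pre-GCB-like cells were lower in cKO and the other two were not, and the directions below are between libraries labelled cKO and libraries labelled control.

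Cell classes were rebuilt by clustering without the interferon-stimulated genes and named from marker genes, so that shares and sums may differ from those of other annotations of these cells. The sums compared rested on 3213 and 4051 control against 4040 and 4501 cKO naive B-like cells in total splenocytes, and on 1817 and 2368 against 5879 and 7498 in the YFP+ sort. The YFP+ pre-germinal-center B-like (pre-GCB-like) class, led by activation genes such as Myc, held 383 and 504 control and 1715 and 1804 cKO cells. In the YFP+ germinal center B-like (GCB-like) class there were 1672 and 3443 control cells against 369 and 218 cKO cells. Different clusters made up most of several classes in the 2 genotypes. B-lineage cells and T cells were each clustered again on their own, so the same cluster number means different clusters in the B cell and T cell classes. In total naive B-like cells, cluster 0 held 94.7% of control cells, whereas clusters 1 and 2 held 42.1% and 39.2% of cKO cells. Among CD4 T cells, cluster 0 held 71.9% of control cells, and clusters 2, 4 and 5 held 30.8%, 24.7% and 24.3% of cKO cells. Cluster 1 held 78.8% of control CD8 T cells and cluster 3 held 66.6% of the cKO ones. In the YFP+ sort, naive B-like cells of control were mostly cluster 0 (82.8%) and those of cKO clusters 1, 4 and 2 (43.6%, 31.9% and 21.4%). YFP+ pre-GCB-like cells came from clusters 6, 21 and 20 in control (54.6%, 25.3% and 18.8%) and from clusters 6 and 13 in cKO (47.6% and 40.7%). Cluster 8 held 45.6% of control and 7.50% of cKO YFP+ GCB-like cells, and cluster 22 held 25.6% of the cKO ones.

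Promoter sequences were read from RefSeq windows on GRCm38.p6, which covered 34 of the 43 genes. The core of the ISRE was searched as GAAA, any 2 bases and GAAA again, and the GAS as TTC, any 3 bases and GAA, on both strands of the 250 bases before the start of transcription. The ISRE core was present before 20 of the 34 genes (58.8%) and before 936 of all 27025 genes in the promoter table (3.46%). A GAS occurred before 7 of the 34 genes (20.6%) and before 8.13% of all genes. Among the GTPase genes, 6 of 7 held an ISRE core. The stretches below come from genes that the comparisons turn on, a T cell set (Isg15, Ifit3, Rsad2, Oas1a) and a pair followed in activated B cells (Igtp, Phf11b), and capitals mark the letters matched by either motif. They lie at chr4:156200819-156200978 (minus strand) for Isg15, chr19:34583369-34583528 (plus) for Ifit3, chr12:26456453-26456612 (minus) for Rsad2, chr5:120907526-120907685 (minus) for Oas1a, chr11:58199396-58199555 (plus) for Igtp and chr14:59341352-59341490 (minus) for Phf11b.
Isg15: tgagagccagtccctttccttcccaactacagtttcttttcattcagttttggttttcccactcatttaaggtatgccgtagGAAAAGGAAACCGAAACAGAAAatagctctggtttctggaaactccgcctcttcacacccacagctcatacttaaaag
Ifit3: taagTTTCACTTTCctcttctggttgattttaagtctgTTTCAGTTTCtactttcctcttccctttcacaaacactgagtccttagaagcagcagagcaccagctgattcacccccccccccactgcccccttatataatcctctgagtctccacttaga
Rsad2: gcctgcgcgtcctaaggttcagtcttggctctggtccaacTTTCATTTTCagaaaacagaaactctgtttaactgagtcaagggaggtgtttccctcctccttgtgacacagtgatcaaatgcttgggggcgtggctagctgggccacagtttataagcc
Oas1a: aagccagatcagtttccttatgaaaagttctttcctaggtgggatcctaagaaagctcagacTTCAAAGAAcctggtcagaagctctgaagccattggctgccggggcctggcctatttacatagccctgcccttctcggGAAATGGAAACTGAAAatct
Igtp: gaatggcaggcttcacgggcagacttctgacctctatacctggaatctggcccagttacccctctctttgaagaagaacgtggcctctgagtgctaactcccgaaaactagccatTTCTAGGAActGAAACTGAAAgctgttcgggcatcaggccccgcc
Phf11b: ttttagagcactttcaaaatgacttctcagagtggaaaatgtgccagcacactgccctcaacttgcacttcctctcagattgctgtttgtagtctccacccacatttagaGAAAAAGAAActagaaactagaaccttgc
The Isg15 stretch held 3 overlapping ISRE cores, the Ifit3 stretch held 2, and in Oas1a the last of 2 overlapping cores ended 4 bases before the start. All 6 stretches lie within the 250 bases before the start and hold no bases of the gene as annotated. In Igtp, an immunity-related GTPase, a GAS lay beside the ISRE core. Igtp overlaps Irgm2 on the same strand, and the ends of Parp9 and Dtx3l overlap on opposite strands, so the counts of these pairs may have been split by the counting. The same holds for Ifit3 and its near-identical copy Ifit3b, for Ifi203 and Ifi213, and within the OAS, GBP and Phf11 families.

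Levels are given as CPM, the usual scaled count, here the UMIs of a gene relative to all UMIs of its class in 1 library. Summed over the 42 genes, pDC-like cells stood far above all other classes, with 4576 and 6388 CPM in the control total libraries and 6070 and 6289 CPM in the cKO total libraries. Most of that sum was Bst2, the membrane protein tetherin and a marker of mouse pDCs, at 2785 and 3815 CPM in control and 3054 and 3893 CPM in cKO. The top rank of the class thus rested largely on this gene, and the rank without Bst2 was not tested. Irf7, the transcription factor that amplifies type I interferon production, was 113 and 180 CPM in control and 221 and 249 CPM in cKO pDC-like cells. These values rested on 45 to 65 pDC-like cells in each library and were not tested.

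Below the pDC-like cells, the control total means ran from 1946 ± 498 CPM (SD, n = 2) in monocyte and macrophage-like cells over 1927 ± 94.7 CPM in CD4 T cells and 1818 ± 28.5 CPM in CD8 T cells to 1603 ± 32.6 CPM in naive B-like cells. The 2 monocyte and macrophage-like libraries, at 1594 and 2299 CPM, lay below and above all CD4 and CD8 T cell libraries and overlapped with the naive B-like ones at 1580 and 1626 CPM, so their rank is not fixed. NK-like (1663 and 1913 CPM) and transitional B-like cells (1712 and 1858 CPM) overlapped with CD8 T cells. At the lower end were pre-GCB-like cells with 978 and 1226 CPM, plasma cell-like cells with 659 and 746 CPM and GCB-like cells with 639 and 471 CPM. Naive B-like and GCB-like libraries did not overlap. In the YFP+ sort, these 3 B cell classes kept their control order, with 1517 and 1351 CPM in naive B-like, 867 and 1013 CPM in pre-GCB-like and 538 and 529 CPM in GCB-like cells.

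**Figure D1:**
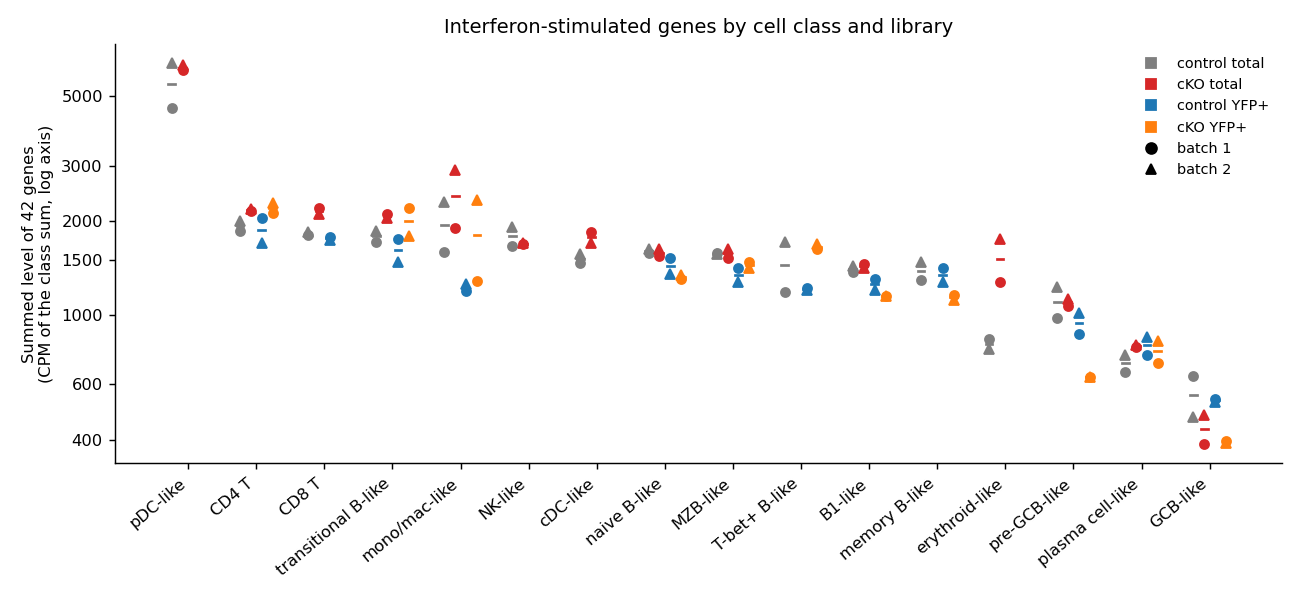
Summed level of the 42 genes (CPM of the class sum, log axis) in each cell class, 1 point per library with at least 20 cells, colours for the 4 groups, circles for batch 1, triangles for batch 2 and short lines for group means. pDC-like cells lie at 4576 to 6388 CPM in the total libraries, and GCB-like cells lie lowest.

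The cKO and control classes of total splenocytes were compared with edgeR's quasi-likelihood test on the UMI sums, with Benjamini-Hochberg adjustment over all genes tested, and a gene was called at an adjusted p under 0.05. Counts of members at an unadjusted p under 0.05 are given below without the share of all genes, so they are not a result about the members. All 5 classes of total splenocytes came from the same 4 libraries and so are not independent of each other. Since the batch number marks a shared batch, each comparison was also fitted with batch as a block, and that value is given beside the genes named where it changed a call. Some genes outside the rule for named genes were chosen after their values were seen, namely Ifi203, Ifi213, Oasl1 and Samd9l in total naive B-like cells, Irgm2 and Ifit2 in CD4 T cells, Usp18 in CD8 T cells, Phf11b in YFP+ naive B-like cells, Ddx58 and Ifi213 between the sorts, and Isg20, Ifit2 and Phf11b in the interactions between classes.

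In total naive B-like cells, no interferon-stimulated gene was called. Of the 42 genes, 41 passed the filter on low counts, 31 of them had a higher estimate in cKO, and 11 had an unadjusted p under 0.05. The background was 6 of 12752 genes called, 0.0471% (0.0392% higher and 0.00784% lower). DESeq2 called 2 members and the fit with batch as a block called 14 (10 higher and 4 lower), against 15.9% of all genes in that fit (8.13% higher and 7.79% lower). The median log2 fold change of the members was 0.16, beside 0.01 over all genes, and it was 0.35 without the first cKO, 0.31 without the second control and 0.0723 without the second cKO library. B-lineage markers summed to 8622 and 8557 CPM in control and to 8040 and 8255 CPM in cKO, pDC markers to 327.5 and 268.5 against 262.1 and 209.8 CPM, and median UMIs per cell were 5185 and 4171 against 5309 and 6002. Their part in the values was not tested.

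Slfn5, a Schlafen family protein, was 29.6 and 37.4 CPM in control and 82.1 and 157 CPM in cKO naive B-like cells. Both cKO libraries stood above both controls, with a log2 fold change of 1.95 ± 0.377 (SE), an adjusted p of 0.196 in edgeR's quasi-likelihood test and of 0.0124 with the block. The synthetase Oas1a was 2.24 and 2.32 CPM in control and 5.04 and 7.63 CPM in cKO (1.55 ± 0.322, adjusted p = 0.204 by edgeR, 0.00146 with the block). For Ifit1, values were 2.06 and 1.13 CPM in control against 2.88 and 3.42 CPM in cKO (adjusted p = 0.562 by edgeR, 0.0418 with the block). In all 3 genes the groups were separate, which here means that both libraries of one group lay above both of the other. Of the members, 13 were separate with cKO higher and 5 with cKO lower, beside 10.4% and 22.9% of all genes.

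By role, the median log2 fold change was 0.43 for the 4 IFIT genes, 0.45 for Isg15 and Usp18 and 0.62 for the 5 OAS genes of total naive B-like cells. Of these OAS genes, 3 had a higher estimate in cKO. The median was 0.28 for the 10 other effectors tested, 0.20 for the 4 PARP and ubiquitin ligase proteins and 0.14 for the 3 transcription factors. It was 0.13 for the 6 sensors and -0.11 for the 7 GTPases, of which 2 had a higher estimate in cKO. Isg15 was 9.25 and 10.9 CPM in control and 9.31 and 11.5 CPM in cKO, and its groups overlapped. Ifit3 was 7.72 and 7.64 against 8.46 and 8.04 CPM, and Irf7 was 10.1 and 11.0 against 11.5 and 12.3 CPM. Stat2, a subunit of the ISRE-binding complex, was 41.0 and 52.4 against 43.4 and 52.5 CPM. Zbp1, a sensor of Z-form nucleic acid, was 15.8 and 19.3 against 20.9 and 33.9 CPM (0.76, adjusted p = 0.698 by edgeR, 0.00534 with the block), and Oasl2 was 8.01 and 7.01 against 6.61 and 6.46 CPM. Bst2, Gbp2, Igtp, Ifi47, Ifih1 and Parp14 had log2 fold changes between -0.11 and 0.16, each with overlapping groups. The 4 members called lower with the block, of 41 tested and beside 7.79% of all genes, were the DNA sensors Ifi203 (adjusted p = 0.0281 with the block, edgeR) and Ifi213 (0.0024), the OAS-like Oasl1 (0.00411) and Samd9l (0.0434).

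Cγ1Cre is directed to activated B cells, and CD4 T cells of total splenocytes were compared as cells outside that lineage. Among 42 members tested, none was called by edgeR, with 392 of 12125 genes called in all, 3.23% (3.06% higher). The estimate was higher in cKO for 30 members, 11 had an unadjusted p under 0.05, DESeq2 called 2, and the block called 20 (16 higher and 4 lower) beside 27.1% of all genes (14.5% higher and 12.6% lower). Groups were separate for 23 members with cKO higher and 3 with cKO lower, beside 30.3% and 12.2% of all genes. The share of members separate and higher was therefore above the share of all genes, and the median log2 fold change was 0.24 for members and -0.02 for all genes. Without the second cKO total library the median of the members was 0.15.

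Rsad2, which encodes viperin, was 3.65 and 3.55 CPM in control and 8.44 and 9.96 CPM in cKO CD4 T cells (log2 fold change 1.20 ± 0.276, adjusted p = 0.0704 by edgeR and 0.00151 with the block). Isg20, an RNA exonuclease, was 14.3 and 16.2 CPM in control and 28.8 and 44.3 CPM in cKO (1.14 ± 0.27, adjusted p = 0.0781 by edgeR, 2.09e-05 with the block). For Oas1a, the values were 2.40 and 3.94 against 7.03 and 12.8 CPM (1.5 ± 0.405, adjusted p = 0.117 by edgeR, 0.00027 with the block). In each of these 3 genes, both cKO libraries exceeded both controls.

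Isg15 was 34.1 and 47.1 CPM in control and 75.4 and 91.6 CPM in cKO CD4 T cells, a log2 fold change of 0.92 ± 0.267 (adjusted p = 0.143 by edgeR, 7.49e-06 with the block). Ifit3 was 7.0 and 7.89 against 18.2 and 11.4 CPM (0.85, adjusted p = 0.219 by edgeR, 0.0127 with the block). Oasl2, an OAS-like protein, was 6.16 and 6.18 against 13.4 and 12.9 CPM (0.96, adjusted p = 0.0841 by edgeR, 0.00143 with the block). These 3 genes of different roles had separate groups. Ifih1, the RNA sensor MDA5, was 30.8 and 23.7 against 47.1 and 43.4 CPM (0.61, adjusted p = 0.248 by edgeR, 0.000846 with the block). Zbp1 was 44.2 and 50.1 against 61.8 and 69.2 CPM and Bst2 53.6 and 84.3 against 80.8 and 104 CPM, both called only with the block (adjusted p = 0.0153 and 0.032, edgeR).

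By role, the median log2 fold change in CD4 T cells was 0.80 for the 5 OAS genes, 0.59 for Isg15 and Usp18, 0.56 for the 4 IFIT genes and 0.32 for the 11 other effectors. It was 0.11 for the 3 transcription factors, 0.09 for the 4 PARP and ubiquitin ligase proteins, 0.08 for the 6 sensors and -0.13 for the 7 GTPases, of which 3 had a higher estimate in cKO. The differences between roles were not tested. Irgm2 was 65.3 and 71.8 CPM in control and 50.1 and 37.2 CPM in cKO (-0.77, adjusted p = 0.189 by edgeR, 0.00528 with the block). Igtp was 55.0 and 64.7 against 53.7 and 60.7 CPM, and Ifi47 was 112 and 139 against 110 and 112 CPM, each with overlapping groups. Gbp2, a guanylate-binding protein, was 21.2 and 30.5 against 25.5 and 25.7 CPM. Ifit2 differed from its IFIT relatives, with 40.3 and 30.2 CPM in control and 26.7 and 16.8 CPM in cKO (-0.81, adjusted p = 0.227 by edgeR, 0.00018 with the block). Irf7, Stat2 and Parp14 had log2 fold changes of 0.17, 0.02 and 0.09.

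Follicular helper T-like (Tfh-like) clusters took different shares of the CD4 T cells in the 2 genotypes, 3.20% and 1.30% in control against 25.6% and 34.6% in cKO. Outside these clusters, no member was called by edgeR, and only 35 of 11606 genes were (0.302%). There, 37 of 42 members had a higher estimate in cKO, 14 had an unadjusted p under 0.05, and the median log2 fold change of the members was 0.34. Without the Tfh-like clusters, Rsad2 had a log2 fold change of 1.32, Ifit3 of 1.30, Isg15 of 0.92 and Oas1a of 1.60. Ifih1 was at 0.66, Bst2 at 0.52 and Zbp1 at 0.50, beside 0.61, 0.31 and 0.36 in all CD4 T cells. Isg20 and Oasl2 had smaller estimates there, 0.99 beside 1.14 and 0.87 beside 0.96. The differences between the 2 sets of cells were not tested. Plasma cell markers summed to 50.8 and 72.7 CPM in control CD4 T cells and to 77.2 and 137 CPM in cKO, and B-lineage markers to 92.2 to 129 CPM in all 4 libraries. Their part in the result was not tested.

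In CD8 T cells, most members had a higher estimate in cKO. Of 41 members tested, 36 had a higher estimate in cKO, 15 had an unadjusted p under 0.05 and none was called by edgeR or by DESeq2, beside 24 of 11121 genes called by edgeR, 0.216% (0.045% lower). With the block, 10 members were called, all higher, beside 4.93% of all genes in either direction and 2.69% higher. Both cKO libraries stood above both controls for 27 members and below for none, beside 14.0% and 14.6% of all genes. The median log2 fold change was 0.36 for members and 0.00 for all genes.

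Ifit3 in CD8 T cells was 11.5 and 12.7 CPM in control and 26.9 and 28.2 CPM in cKO (1.19 ± 0.24, adjusted p = 0.123 by edgeR, 0.00868 with the block). Rsad2 was 2.48 and 2.71 against 6.40 and 9.46 CPM (1.55 ± 0.357, adjusted p = 0.17 by edgeR, 0.021 with the block). Oas2 was 3.47 and 1.60 against 6.58 and 6.26 CPM (1.28, adjusted p = 0.4 by edgeR and 0.0658 with the block). These 3 genes had separate groups and the largest estimates of that kind. Isg15 was 24.7 and 33.0 against 46.4 and 63.2 CPM (0.94, adjusted p = 0.403 by edgeR, 0.00701 with the block), and its protease Usp18 was 13.6 and 16.5 against 25.8 and 36.3 CPM (1.06, adjusted p = 0.28 by edgeR, 0.00969 with the block).

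By role, the 5 OAS genes of CD8 T cells had a median log2 fold change of 1.08, Isg15 and Usp18 of 1.00 and the 4 IFIT genes of 0.76, whereas the 7 GTPases had a median of 0.22. Oasl2 was 6.45 and 4.68 against 15.9 and 7.78 CPM, Bst2 65.1 and 88.7 against 108 and 135 CPM, and Zbp1 39.2 and 42.6 against 55.6 and 65.8 CPM, all 3 separate and called with the block (adjusted p = 0.0473, 0.0101 and 0.0209, edgeR). Irf7 was 16 and 22.4 against 25.9 and 27.3 CPM and Stat2 16.2 and 21.8 against 21.9 and 25.6 CPM, separate but not called. Gbp2 overlapped between the groups at 27.9 and 34.7 against 28.7 and 27.3 CPM, as did Ifih1 and Parp14. For Igtp, 49.1 and 49.0 CPM in control stood against 61.0 and 56.2 CPM in cKO, and Ifi47 was 136 and 151 against 162 and 172 CPM. B-lineage markers summed to 88.3 to 142 CPM and monocyte and macrophage markers to 32.2 to 41.6 CPM in the CD8 T cell sums. Plasma cell markers summed to 37.2 and 52.5 CPM in control and to 42.9 and 99.2 CPM in cKO CD8 T cells, highest in the second cKO library, and their part in the result was not tested.

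**Figure D2:**
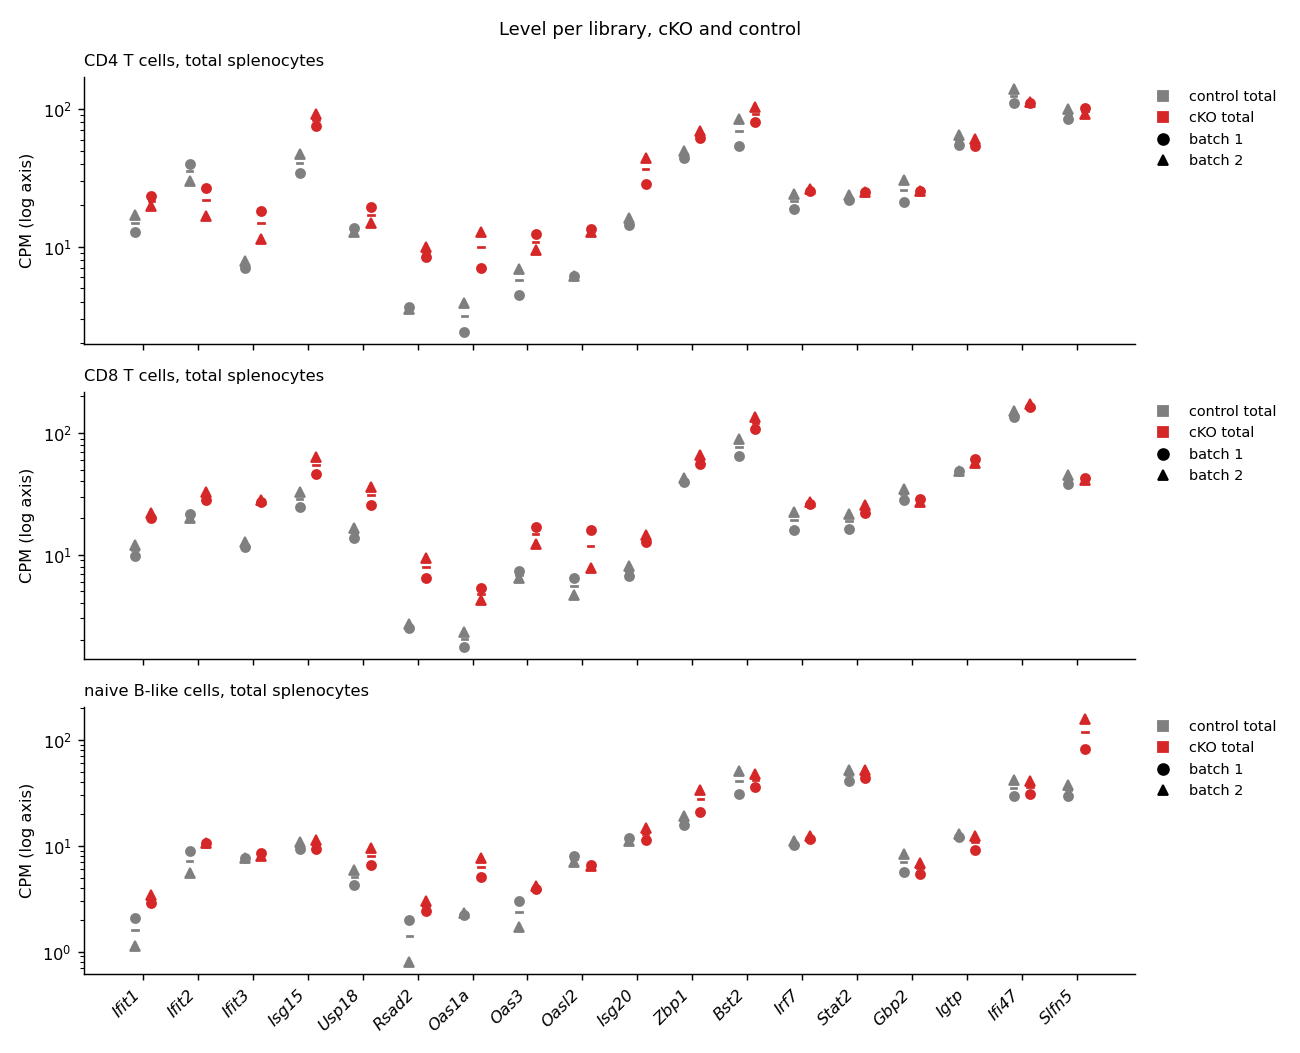
Level (CPM, log axis) of selected interferon-stimulated genes in CD4 T, CD8 T and naive B-like cells of total splenocytes, 1 point per library, circles for batch 1, triangles for batch 2 and short lines for group means. Rsad2, Oas1a and Isg15 lie higher in both cKO libraries than in both controls in the T cells, while Isg15 overlaps in naive B-like cells.

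To count cells with several of these transcripts, each cell was thinned to 2000 UMIs, and cells with fewer UMIs were left out. A cell with UMIs of at least 3 of 9 core genes (Ifit1, Ifit2, Ifit3, Ifit3b, Isg15, Usp18, Rsad2, Oasl1 and Oasl2) was counted as interferon-high. Several core genes, such as Isg15, Ifit3 and Rsad2, had higher sums in cKO T cells, so the shares are not independent of those sums. They cannot tell more responding cells from a higher level in each cell. The cut makes a range of a continuous score and not a cell type. Cells left out were 0% to 1.67% of the T cells and 1.00% to 3.33% of total naive B-like cells in each library, but 29.6% and 6.0% of control and 21.5% and 16.4% of cKO monocyte and macrophage-like cells. In YFP+ naive B-like cells they were 6.16% and 14.3% of control and 3.13% and 1.49% of cKO cells. Among control CD4 T cells, 1.06% (exact 95% interval 0.579% to 1.77%) and 0.853% (0.426% to 1.52%) were interferon-high. In cKO, the shares were 1.98% (1.32% to 2.85%) and 2.10% (1.5% to 2.84%). For CD8 T cells, the control shares were 0.712% (0.287% to 1.46%) and 1.03% (0.532% to 1.79%), and those of cKO were 1.98% (1.09% to 3.30%) and 2.22% (1.28% to 3.58%). Both cKO libraries were above both controls in either T cell class. The two-sided exact permutation p was 0.333 for each, the smallest that 2 libraries against 2 can give, so the design could not pass a threshold of 0.05. The intervals cover counting error only.

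Naive B-like cells of total splenocytes had smaller shares, 0.483% and 0.481% in control against 0.840% and 0.718% in cKO, which did not overlap (exact permutation p = 0.333). With a cut at 5 genes, their shares of 0.129% and 0.228% against 0.229% and 0.157% overlapped (exact permutation p = 0.667). Other B cell classes of total splenocytes differed in direction and were not tested. Transitional B-like shares were 0.198% and 0.840% in control against 1.89% and 1.06% in cKO. Marginal zone B-like shares were 1.01% and 0.916% against 0.763% and 0.861%, lower in cKO. The pre-GCB-like and B1-like shares overlapped between the genotypes. In monocyte and macrophage-like cells, the shares were 1.00% and 4.68% in control and 2.11% and 6.19% in cKO (exact permutation p = 0.667), and the 2 batches lay further apart than the genotypes. In cDC-like cells they were 0.585% and 2.54% against 2.94% and 1.25% (exact permutation p = 0.667). Without thinning, the shares were 3.72% and 3.30% against 4.80% and 5.19% in CD4 T cells, 3.65% and 3.49% against 6.20% and 7.64% in CD8 T cells and 1.37% and 0.815% against 1.86% and 2.02% in naive B-like cells. In plasma cell-like cells of the control YFP+ libraries, none of 885 and none of 1040 thinned cells was interferon-high, which allows shares of up to 0.339% and 0.288%. A count of 0 is taken here and below to allow up to 3 cells, a rule other than the exact intervals given for T cells. The remaining 33 members were not used by the cut. In interferon-high naive B-like, CD4 T and CD8 T cells they summed to 4.63 to 8.93 times the level of the other cells, a description of these libraries.

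**Figure D3:**
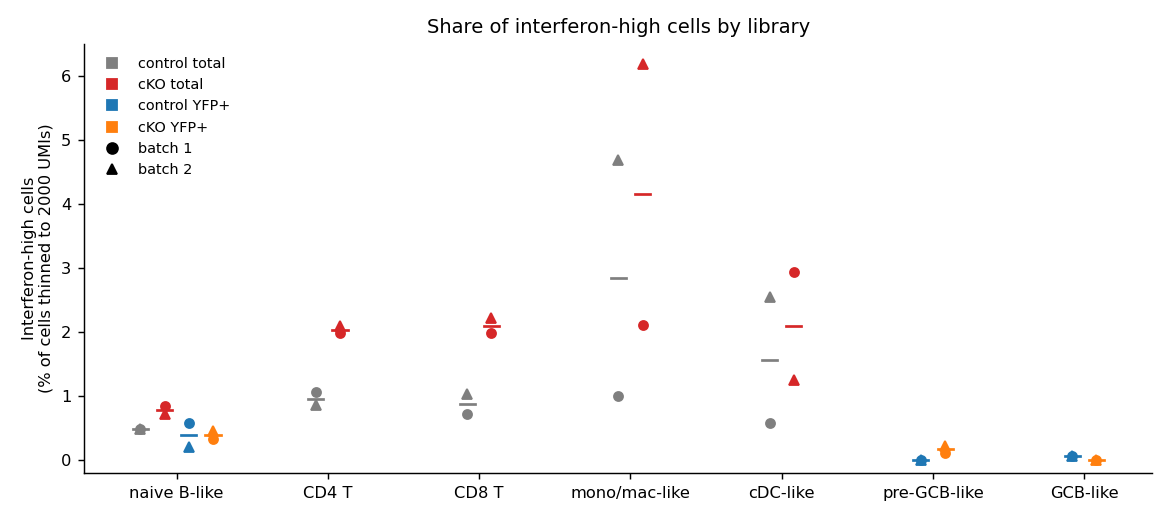
Share of interferon-high cells (percent of cells thinned to 2000 UMIs) by class, 1 point per library, circles for batch 1, triangles for batch 2 and short lines for group means. CD4 and CD8 T cells of cKO lie at 1.98% to 2.22%, above the controls at 0.712% to 1.06%.

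Monocyte and macrophage-like cells had no called member by edgeR or DESeq2, with 40 tested, 36 estimates higher in cKO and none at an unadjusted p under 0.05, and no gene of 8946 was called (0.0%). With the block, no member was called, beside 5.01% of all genes. Isg15 was 32.7 and 77.1 CPM in control and 33.4 and 177 CPM in cKO, so the batches differed more than the genotypes. Irf7 likewise was 30.7 and 97.4 against 40.2 and 98.4 CPM. Monocyte and macrophage markers summed to 6384 and 19389 CPM in control and to 6287 and 14368 CPM in cKO, and erythroid markers to 1273 and 3845 against 6910 and 7399 CPM. B-lineage markers followed the batch, with 2505 and 641 against 2527 and 1159 CPM, T cell markers were 117 and 205 against 161 and 402 CPM, highest in the second cKO library, and plasma cell markers were 316 and 252 against 178 and 239 CPM. Their part in these values was not tested. Oas3 (5.11 and 14.3 against 14.4 and 29.3 CPM), Ifi213 (20.4 and 32.6 against 39.5 and 55.8 CPM) and Oasl1 (8.17 and 7.91 against 14.4 and 12.3 CPM) had the largest estimates with separate groups. Separate groups were found for 13 members with cKO higher and 1 with cKO lower, beside 14.1% and 12.4% of all genes.

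Conventional dendritic (cDC-like) cells likewise had no called member by edgeR or DESeq2, with 38 tested, 31 estimates higher and 2 at an unadjusted p under 0.05, and none of 9634 genes called (0.0%). Irf7 was 27.2 and 26.4 CPM in control and 56.6 and 68.0 CPM in cKO (1.18 ± 0.291, adjusted p = 0.818 by edgeR). It was the only member called with the block (adjusted p = 0.000434), beside 1.21% of all genes. Gbp2 was 37.6 and 17.9 against 13.6 and 15.4 CPM, and the sensor Dhx58 was 8.21 and 13.2 against 16.3 and 20.9 CPM, both separate and not called. Isg15 was 50.6 and 49.7 against 62.4 and 70.7 CPM. In cDC-like cells of the second cKO library, monocyte and macrophage markers summed to 3535 CPM, beside 1135 to 1308 CPM in the other 3, and plasma cell markers to 974 CPM, beside 112 to 149 CPM. B-lineage markers summed to 578 and 474 CPM in control and 462 and 336 CPM in cKO. Their part in the Irf7 difference was not tested.

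The YFP+ sort was made for cells in which Cre had been active. Besides B cells, its libraries held 21 to 205 CD4 T cells, 8 to 129 CD8 T cells and 21 to 128 monocyte and macrophage-like cells each, which were not compared. In YFP+ naive B-like cells, no member was called by edgeR, 41 were tested, 26 had a higher estimate in cKO and 6 had an unadjusted p under 0.05, beside 52 of 12682 genes called, 0.41% (0.308% higher and 0.103% lower). DESeq2 called 2 members and the block 8 (4 higher and 4 lower), beside 16.4% of all genes (8.45% higher and 7.91% lower). Slfn5 was 30.3 and 25.9 CPM in control and 57.2 and 121 CPM in cKO (1.82 ± 0.404, adjusted p = 0.139 by edgeR and 0.221 with the block). Usp18 was 4.04 and 1.94 against 4.58 and 13.5 CPM, and Oas1a 3.20 and 2.24 against 4.26 and 8.73 CPM. The second cKO library was the higher one for each of these 3 genes. Isg15 (6.54 and 9.54 against 6.80 and 8.12 CPM), Ifit3 (9.05 and 3.28 against 5.53 and 4.57 CPM) and Irf7 (7.79 and 7.90 against 7.09 and 8.28 CPM) overlapped between the genotypes. Groups were separate for 10 members with cKO higher and 8 with cKO lower, beside 13.3% and 26.4% of all genes.

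Phf11b, which encodes a PHD finger protein, was 27.4 and 35.3 CPM in control and 39.1 and 50.2 CPM in cKO YFP+ naive B-like cells (0.65, adjusted p = 0.494 by edgeR, 0.00362 with the block). The shares of interferon-high cells were 0.587% and 0.197% against 0.334% and 0.447% (exact permutation p = 1). Plasma cell markers summed to 271 and 227 CPM in control and to 87.0 and 107 CPM in cKO, monocyte and macrophage markers to 24.5 and 16.5 against 51.1 and 50.6 CPM and B-lineage markers to 8121 and 8019 against 7422 and 7614 CPM, and median UMIs per cell were 3872 and 2708 against 5240 and 6034. Their part in the values was not tested.

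In YFP+ pre-GCB-like cells, which came from partly different clusters in the 2 genotypes, 29 of 40 tested members had a lower estimate in cKO. edgeR's quasi-likelihood test called 5 members (1 higher and 4 lower), beside 1414 of 12920 genes, 10.9% (5.19% higher and 5.76% lower). This count moved with the libraries, to 13 of 40 without the first control YFP+ library (16.7% of all genes), 12 of 40 without the second (19.7%) and 9 of 35 without the first cKO YFP+ library (9.33%). At an unadjusted p under 0.05 there were 13 members, and the block called 16 (3 higher and 13 lower) beside 31.7% of all genes (2072 of the 12920 genes higher, and 2028, 15.7%, lower). The median log2 fold change of the members was -0.37 and that of all genes 0.00, and without the second control YFP+ library the median of the members was -0.0883. Groups were separate for 23 members with cKO lower and 8 with cKO higher, beside 29.3% and 26.2% of all genes.

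Phf11b fell from 58.2 and 59.2 CPM in control to 13.9 and 18.3 CPM in cKO pre-GCB-like cells (-1.79 ± 0.228, adjusted p = 0.0037 by edgeR). Isg15 fell from 18.2 and 22.9 CPM to 7.26 and 8.20 CPM (-1.34 ± 0.241, adjusted p = 0.013 by edgeR). These 2 calls held under every alternative that was run. Ifi203, a DNA-binding protein of the AIM2-like receptor family, fell from 166 and 193 to 84.8 and 72.7 CPM (-1.14 ± 0.222, adjusted p = 0.0177 by edgeR), and without the second cKO YFP+ library the adjusted p was 0.162. The GTPase Irgm1 fell from 20.1 and 38.7 to 7.89 and 11.5 CPM (-1.55 ± 0.369, adjusted p = 0.0347 by edgeR), and in 1 model of all 8 libraries the adjusted p was 0.0534. Slfn5 rose from 4.44 and 2.78 to 6.85 and 12.1 CPM (1.46 ± 0.387, adjusted p = 0.0492 by edgeR), and without the second cKO YFP+ library its log2 fold change was 0.94 with an adjusted p of 0.358. The Slfn5 call was also lost with doublets removed (adjusted p = 0.0647 by edgeR), at resolution 1.5 (0.126) and in the model of all 8 libraries (0.167).

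None of the 7 tested GTPases had a higher estimate in cKO pre-GCB-like cells, and their median log2 fold change was -0.96. Gbp7 was 8.70 and 27.4 CPM in control and 5.96 and 4.05 CPM in cKO (-1.83 ± 0.49, adjusted p = 0.0516 by edgeR). Igtp was 8.70 and 18.8 against 6.59 and 7.11 CPM (-0.96, adjusted p = 0.141 by edgeR, 0.000528 with the block), and Ifi47 was 35.4 and 67.4 against 29.8 and 32.6 CPM (-0.68, adjusted p = 0.231 by edgeR, 0.000355 with the block). For Gbp2, the values 10.4 and 34.4 against 10.5 and 8.22 CPM overlapped. The second control library held the higher value for each of these 4 GTPases.

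Among the other roles, Ifit3 was 2.13 and 3.47 CPM in control and 0.983 and 0.752 CPM in cKO pre-GCB-like cells (-1.55 ± 0.433, adjusted p = 0.0592 by edgeR, 0.00658 with the block). Stat2 was 20.5 and 21.9 against 13.7 and 16.4 CPM (-0.43, adjusted p = 0.263 by edgeR, 0.0496 with the block), and Zbp1 was 15.8 and 33.2 against 10.1 and 15.1 CPM (-0.91, adjusted p = 0.182 by edgeR, 2.11e-05 with the block). Of the 5 OAS genes, 3 had higher estimates, among them Oasl2 with 0.193 and 1.04 against 1.58 and 1.06 CPM. Bst2 was 46.0 and 52.3 against 56.9 and 56.9 CPM, separate and higher in cKO. Irf7, Ifih1 and Parp14 were not called in either fit. B-lineage markers summed to 4342 and 4641 CPM in control and 3217 and 3143 CPM in cKO, and median UMIs per cell were 9479 and 10148.5 against 12050 and 15928. pDC markers summed to 409 and 358 against 220 and 189 CPM, plasma cell markers to 410 and 328 against 220 and 184 CPM, and monocyte and macrophage markers to 49.7 and 35.9 against 88.3 and 79.5 CPM. The YFP+ libraries held at most 6 pDC-like cells each. The part of these values and of the different clusters in the member levels was not tested.

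GCB-like cells of the YFP+ sort had 35 members tested, of which 32 had a lower estimate in cKO. Phf11b fell from 48.1 and 32.6 CPM to 17.0 and 14.7 CPM (-1.29 ± 0.225, adjusted p = 0.0233 by edgeR) and was the only member called, beside 174 of 12170 genes, 1.43% (0.904% higher and 0.526% lower). Without the first cKO YFP+ library the adjusted p of Phf11b was 0.0728, and without the second it was 0.109. There were 10 members at an unadjusted p under 0.05, and the block called 9 (1 higher and 8 lower), beside 9.85% of all genes (4.03% higher and 5.83% lower). Without the first control YFP+ library 8 of 31 members were called, beside 6.0% of all genes, and without the second 3 of 30, beside 9.09%. Groups were separate for 24 members with cKO lower and 2 with cKO higher, beside 19.8% and 16.2% of all genes. The median log2 fold change was -0.52 for members and -0.01 for all genes, and without the second control YFP+ library that of the members was -0.27.

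All 7 tested GTPases had a lower estimate in cKO GCB-like cells, with a median log2 fold change of -0.88. Gbp2 was 3.57 and 7.70 CPM in control and 1.48 and 1.89 CPM in cKO (-1.72 ± 0.513, adjusted p = 0.201 by edgeR, 0.000484 with the block). Ifi47 was 24.6 and 40.2 against 12.1 and 18.5 CPM (-1.08, adjusted p = 0.222 by edgeR, 1.21e-07 with the block). Both GTPases had separate groups. Isg15 was 7.90 and 7.48 against 3.54 and 3.55 CPM (-1.06, adjusted p = 0.187 by edgeR, 0.00518 with the block), and Zbp1 was 16.5 and 25.2 against 8.27 and 13.2 CPM (-0.96, adjusted p = 0.314 by edgeR, 7.53e-05 with the block). Ifit3 had 18 and 50 UMIs in the control sums and 1 and 1 in the cKO sums, too few for a fold. Slfn5, at 1.47 and 1.21 against 3.10 and 3.79 CPM, again had both cKO libraries above both controls (1.34, adjusted p = 0.221 by edgeR, 0.0221 with the block).

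Irf7, Stat2, Oasl2, Igtp and Ifih1 were below control in estimate but not called in GCB-like cells, and Bst2 was 23.4 and 25.9 CPM in control against 27.8 and 35.5 CPM in cKO. Parp14, an ADP-ribosyltransferase, was 42.3 and 29.0 against 30 and 30.5 CPM. The interferon-high shares in GCB-like cells were 0.0603% and 0.0585% in control, and none of 362 and 216 thinned cKO cells was interferon-high, which allows up to 0.829% and 1.39%. In pre-GCB-like cells none of 381 and 494 control cells was, which allows up to 0.787% and 0.607%, and the cKO shares were 0.117% and 0.223% (exact permutation p = 0.333). With a cut at 2 genes, the pre-GCB-like shares were 0.262% and 0.405% against 0.645% and 0.557%, and without thinning 1.04% and 1.19% against 1.34% and 1.55% (exact permutation p = 0.333 for each). Both cKO libraries were above both controls in these settings, but the main shares rested on 2 and 4 interferon-high cKO cells. They lay below the shares that the control zeros allow, so a difference was not detectable at the main cut. With a cut at 5 genes, the shares were 0% and 0% against 0% and 0.0557% and overlapped. Unthinned shares are not free of depth, and median UMIs per cell were higher in cKO. The summed level of the 42 genes in this class was 867 and 1013 CPM in control and 635 and 634 CPM in cKO. In GCB-like cells too, a difference was not detectable at these numbers of cells. In the GCB-like sums, B-lineage markers were 5158 and 5165 CPM in control and 3861 and 4095 CPM in cKO, and erythroid markers 47.9 and 88.7 against 25.4 and 21.5 CPM. Plasma cell markers were 830 and 911 against 969 and 1113 CPM, and median UMIs per cell 12838.5 and 12073 against 15932 and 17803. Their part, and that of the different clusters, was not tested.

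**Figure D4:**
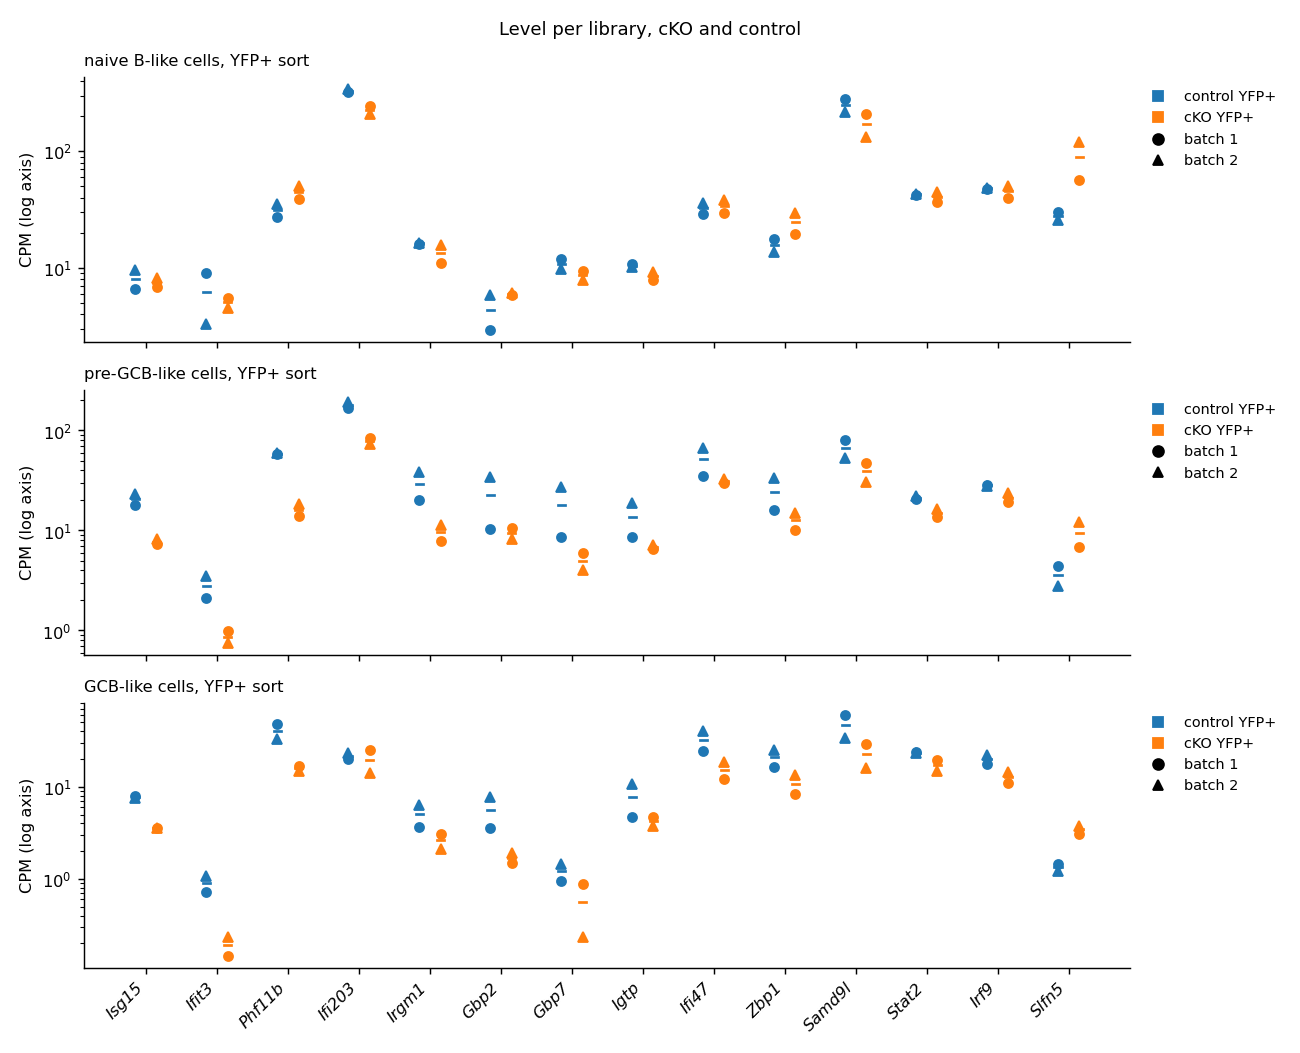
Level (CPM, log axis) of selected interferon-stimulated genes in naive B-like, pre-GCB-like and GCB-like cells of the YFP+ sort, 1 point per library, circles for batch 1, triangles for batch 2 and short lines for group means. Phf11b lies higher in cKO in naive B-like cells and lower in the other classes.

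**Figure D5:**
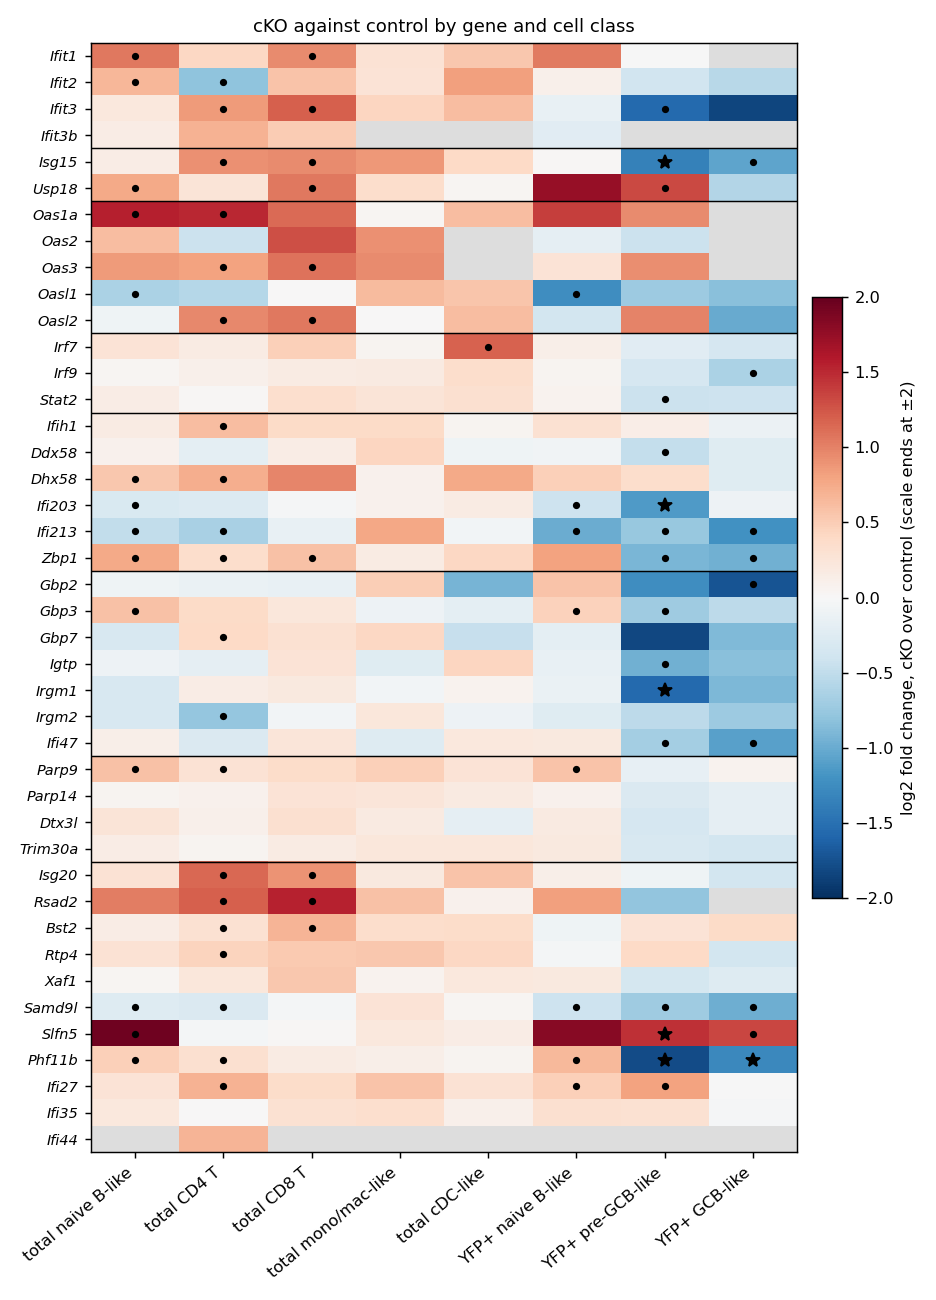
Log2 fold change of cKO over control for each interferon-stimulated gene (rows, by role) in each class compared (columns), with the colour scale ending at 2 in either direction. A star marks an adjusted p under 0.05, a dot a call made only with batch as a block, and grey a gene that was not tested. All 7 tested GTPases have negative values in the pre-GCB-like and GCB-like columns, and 5 of 7 have positive values in CD8 T cells.

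Whether the genotype effect differed between classes was tested as an interaction. Between total naive B-like and CD4 T cells, no member was called by edgeR, 5 had an unadjusted p under 0.05, DESeq2 called 1, and 44 of 13958 genes were called (0.315%, 0.0502% with a negative difference). With the library as a block, 6 members were called beside 13.6% of all genes, and the differences given here and below are from that fit. The effect in CD4 T cells exceeded that in naive B-like cells by 1.07 for Oasl2 (adjusted p = 0.178 by edgeR, 0.00579 with the block), by 0.80 for Isg15 (0.558 and 0.00225 in the same fits) and by 0.87 for Isg20 (0.521 and 0.0036). For Ifit2 the difference was -1.51 (adjusted p = 0.257 by edgeR, 0.00456 with the block), since Ifit2 was higher in cKO naive B-like cells and lower in cKO CD4 T cells.

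Between YFP+ naive B-like and pre-GCB-like cells, an interaction added after the data were seen, edgeR called no member, beside 0.101% of all genes, and the block called 10, beside 16.3%. For Phf11b the difference was -2.42 (adjusted p = 0.061 by edgeR, 6.53e-11 with the block). Isg15 differed by -1.34 (adjusted p = 0.255 by edgeR, 0.000205 with the block). For GCB-like against naive B-like cells, edgeR called no member (0.0% of all genes) and the block called 7, beside 5.2%, with Phf11b at -1.91 (adjusted p = 0.187 by edgeR, 0.000142 with the block).

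The sorts of the same pools were compared within each genotype. In control naive B-like cells, YFP+ against total, no member was called by edgeR or DESeq2, 5 of 41 estimates were higher in YFP+ and none had an unadjusted p under 0.05, beside 1 of 11986 genes called (0.00834%). The block called Ddx58 and Parp14, both lower in YFP+ (adjusted p = 0.0298 and 0.0294, edgeR), beside 5.19% of all genes. Parp14 was 90.7 and 67.1 CPM in total and 83.4 and 46.5 CPM in YFP+ cells. Usp18 (4.30 and 5.94 against 4.04 and 1.94 CPM), Ifit1 (2.06 and 1.13 against 1.11 and 0.745 CPM) and Irf7 (10.1 and 11.0 against 7.79 and 7.90 CPM) had the largest estimates with separate groups. The groups were separate for 10 members with YFP+ lower and none with YFP+ higher, beside 11.8% and 8.08% of all genes. Plasma cell markers summed to 59.3 and 94.1 CPM in total and 271 and 227 CPM in YFP+ cells, T cell markers to 28.4 and 40.05 against 4.18 and 1.79 CPM and B-lineage markers to 8622 and 8557 against 8121 and 8019 CPM, and median UMIs per cell were 5185 and 4171 against 3872 and 2708. Their part in the values was not tested.

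In cKO naive B-like cells, 33 of 41 members had a lower estimate in YFP+ than in total cells, none was called by edgeR or DESeq2 and 5 had an unadjusted p under 0.05, with none of 13376 genes called (0.0%). With the block, which pairs the sorts of 1 pool, 18 members were called, 17 of them lower, beside 27.7% of all genes and 11.6% lower. Oasl1 was 13.5 and 9.85 CPM in total and 5.73 and 5.52 CPM in YFP+ cells (-0.95 ± 0.201, adjusted p = 0.687 by edgeR, 0.000146 with the block). Oas3 was 3.87 and 4.14 against 1.89 and 2.18 CPM (-0.86, adjusted p = 0.922 by edgeR, 0.00229 with the block) and Oas2 3.64 and 4.04 against 2.07 and 2.10 CPM (-0.78, adjusted p = 0.961 by edgeR, 0.0043 with the block). In the same pairs, Ifit3 was 8.46 and 8.04 against 5.53 and 4.57 CPM (-0.62, adjusted p = 0.909 by edgeR, 0.00155 with the block). Separate groups were found for 22 members with YFP+ lower and none with YFP+ higher, beside 18.0% and 10.7% of all genes. The interferon-high share went from 0.840% and 0.718% in total to 0.334% and 0.447% in YFP+ naive B-like cells (exact permutation p = 0.333). With a cut at 5 genes, the shares of 0.229% and 0.157% against 0.140% and 0.176% overlapped (exact permutation p = 0.667). T cell markers summed to 23.5 and 34.3 CPM in total and 3.90 and 1.21 CPM in YFP+ cells, monocyte and macrophage markers to 30.9 and 27.6 against 51.1 and 50.6 CPM, and B-lineage markers to 8040 and 8255 against 7422 and 7614 CPM. Their part in the result was not tested.

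The difference between the sorts was not shown to depend on genotype. The interaction of genotype and sort called no member by edgeR or DESeq2, with none at an unadjusted p under 0.05 and none of 13264 genes called (0.0%). The block called Ifi213 alone, at -0.50 (adjusted p = 0.0257), beside 2.92% of all genes. Between the 2 sorts, Gbp2, Igtp, Ifi47, Ifih1, Stat2 and Zbp1 were not called in either genotype or fit.

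Interferon transcripts themselves were rare. Of 20 interferon genes listed, 15 had no UMI in any library, including all 13 Ifna genes listed, and Ifnb1 had 2 UMIs. Ifng, the type II interferon made by T and NK cells, had 2276 UMIs in 1092 cells and was called in 1 class comparison, YFP+ pre-GCB-like cells. In total CD4 T, CD8 T and naive B-like cells, 1 interferon gene each was tested and not called. The log2 fold changes were -1.06, 2.17 and -0.28, so the estimates of the 2 T cell classes had opposite signs. In the other pathway lists, receptors and kinases, sensors and adaptors and 70 further interferon-stimulated genes, no gene was called in total naive B-like, CD8 T, monocyte and macrophage-like or cDC-like cells, nor between the sorts. In CD4 T cells Irf5, a transcription factor of the interferon regulatory family, rose from 4.59 and 5.0 to 11.9 and 15.6 CPM (1.38 ± 0.265, adjusted p = 0.0438 by edgeR), and outside the Tfh-like clusters, where fewer genes were called, its log2 fold change was 1.32 with an adjusted p of 0.0803. Without the second cKO total library the adjusted p of Irf5 was 0.0727. The DNA sensor family gene Ifi204 had 0 and 3 UMIs in control and 3.68 and 14.4 CPM in cKO CD4 T cells (adjusted p = 0.0454 by edgeR), a call lost with DESeq2 (0.0632), at resolution 1.5 (0.0537) and outside the Tfh-like clusters (0.18).

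In YFP+ pre-GCB-like cells, 63 of the 70 further interferon-stimulated genes were tested, 18 were called lower and 1, Gbp9, higher, beside 5.76% of all genes lower and 5.19% higher. Ly6a, which encodes Sca-1, fell from 433 and 615 to 72.0 and 38.8 CPM (-3.21, adjusted p = 0.00248 by edgeR). Ifi211 fell from 16.4 and 41.3 to 1.11 and 0.908 CPM (adjusted p = 0.00175 by edgeR), Ly6c2 from 20.1 and 34.4 to 3.42 and 0.908 CPM (adjusted p = 0.00718) and Ms4a4b from 7.54 and 12.9 to 1.33 and 0.441 CPM (adjusted p = 0.00696). Cxcl9, a chemokine induced by interferon gamma, had 12 and 24 UMIs in control and 3 and 1 in cKO (adjusted p = 0.00368 by edgeR). All 5 were lower in both cKO libraries. The call of Ly6c2 was lost with the block (adjusted p = 0.391 by edgeR), at resolution 1.5 (0.192) and without the first control YFP+ library (0.139). Gbp9, Ifngr1, Socs1, Tlr3, Unc93b1 and Ifng fall outside the rule for named genes and were chosen after their values were seen. Of 18 receptors and kinases tested, 1 was called lower and 1 higher. Ifngr1, the ligand-binding chain of the interferon gamma receptor, fell from 64.9 and 101 to 39.5 and 37.4 CPM (-1.07, adjusted p = 0.044 by edgeR). Socs1, an inhibitor of JAK kinases, rose from 17.6 and 22.1 to 64.7 and 99.2 CPM (2.10, adjusted p = 0.00575 by edgeR). Of 17 sensors and adaptors tested, 2 were called lower and none higher. Tlr3, a receptor for double-stranded RNA, fell from 2.51 and 6.43 to 0.507 and 0.597 CPM (-2.78, adjusted p = 0.0146 by edgeR). Unc93b1, which carries nucleic acid-sensing Toll-like receptors to endosomes, fell from 415 and 437 to 242 and 211 CPM (-0.86, adjusted p = 0.0465 by edgeR). Ifng, the 1 interferon gene tested, had 5 and 5 UMIs in control and 2 and 5 in cKO, too few for a fold (called lower, adjusted p = 0.0404 by edgeR, DESeq2 0.0939). The calls of Ifngr1 and Unc93b1 were lost with doublets removed (adjusted p = 0.0505 for each, edgeR), without the first cKO YFP+ library (0.0662 and 0.214) and without the second (0.104 and 0.52), and that of Ifng was also lost at resolution 1.5 (0.0998).

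Ly6a was also the only gene of these lists called in YFP+ naive B-like cells, where it fell from 187 and 207 to 49.3 and 32.0 CPM (-2.16 ± 0.295, adjusted p = 0.0363 by edgeR). In GCB-like cells, 4 of 57 further interferon-stimulated genes were called, all lower, beside 0.526% of all genes lower. Ms4a4c fell from 47.5 and 53.7 to 16.1 and 13.5 CPM (-1.73, adjusted p = 0.00558 by edgeR). Nlrc5, a transactivator of MHC class I genes, fell from 46.2 and 39.6 to 18.2 and 18.9 CPM (-1.16, adjusted p = 0.0234 by edgeR). Ifi209 fell from 118 and 139 to 63.9 and 47.6 CPM (-1.17, adjusted p = 0.0479 by edgeR), and Ms4a4b fell from 6.59 and 7.72 to 1.33 and 0.710 CPM (adjusted p = 0.0146), with 9 and 3 UMIs in the cKO sums. Without the first and without the second cKO YFP+ library, the adjusted p was 0.284 and 0.111 for Nlrc5 and 0.177 and 0.596 for Ifi209 (edgeR), so neither call held.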

How the data were processed

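Droplet 3′ single-cell RNA libraries of spleen cells were deposited by the authors as filtered tables of UMI counts per gene and cell, 1 for each of the 8 libraries. The submitters' processing notes name GRCm 38 and mm 10, and no aligner is named (not given in the sources used here). Cells were kept, doublets included, above 200 UMIs and 100 genes and up to a mitochondrial share of 10%. Counts were scaled to 10000 per cell, the 2000 most variable genes without immunoglobulin, T cell receptor, ribosomal, mitochondrial and listed genes were standardized within batch, and cells were clustered on 30 principal components and 20 neighbours by the Leiden method at resolution 1 (scanpy 1.11.5, igraph 0.11.9). Clusters were named from at least 3 markers seen in 10% of cells, by a score that was set after the clusters were seen and before any test between groups. T cell clusters were instead named CD4 T where the share of cells with Cd4 was over 3 times that with Cd8a, and CD8 T in the reverse case.

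UMIs were summed per library and class with at least 20 cells and tested with edgeR 4.0.16 (R 4.3.3, limma 3.58.1; TMM, filterByExpr, robust quasi-likelihood fit, prior count 2, Benjamini-Hochberg adjustment, threshold 0.05). DESeq2 1.42.0 was an alternative, as were no filter on low counts, leaving out each library, doublets removed, a stricter cell filter (1000 UMIs, 5% mitochondrial), resolution 1.5, all 8 libraries in 1 model, immunoglobulin genes left out, and batch as a block. Shares of interferon-high cells were compared by an exact permutation test over libraries (scipy 1.17.1). The tests were checked on simulated data, where the fit without the block missed nearly all of the smaller fold changes and the fit with it recovered most, with some false calls. A count of 0 without the block therefore does not show that members did not change. The simulated data gave both groups the same batch shift, which is what the block assumes. They therefore do not check the calls made only with the block. Each library holds pooled mice, and p-values measure the spread between libraries. Without the block, the interaction fits took 2 class sums of 1 library, or 2 sorts of 1 pool, as independent. The comparisons of the sorts and the model of all 8 libraries did so for the sorts. Those p-values ignore the pairing.

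The batch number of the labels marks a shared batch and pairs the samples. Deviations from group means of same-numbered libraries correlated at 0.222 to 0.851 in every comparison. Where scaling factors moved fold changes by over 0.1 (log2), the median of all genes went from -0.09 as a CPM ratio to 0.01 in the fit in total naive B-like, from 0.09 to -0.02 in CD4 T and from -0.12 to 0.00 in YFP+ naive B-like cells, and fold changes are relative to the fitted scale. The genes named were those called, a set of 12 followed in each comparison (Ifit3, Isg15, Irf7, Stat2, Oasl2, Bst2, Zbp1, Gbp2, Igtp, Ifi47, Ifih1 and Parp14), the 3 separate members with the largest estimates, and up to 5 called genes of the pathway lists. The members and lists were chosen with earlier results of these data known.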

Additional observations from a re-analysis of the deposited data

Results flagged for a closer look

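In 12 instances, each of 1 member in 2 classes, the genotype effect pointed in opposite directions by at least 0.5 on the log2 scale with separate groups in each class. Where an interaction had been tested, a pair was listed only if at least 1 of the 2 fits called it. The adjusted p-values given were thus part of the selection. The share of all genes with such effects was not counted, and values are given here without an explanation. Phf11b had log2 fold changes of 0.65 in YFP+ naive B-like and -1.79 in pre-GCB-like cells, a difference of -2.42 with the library as a block (adjusted p = 0.061 without and 6.53e-11 with the block, edgeR). Against GCB-like cells, where Phf11b changed by -1.29, the difference was -1.91 (adjusted p = 0.187 and 0.000142, edgeR). For Zbp1 the effect was 0.81 in naive B-like, -0.91 in pre-GCB-like and -0.96 in GCB-like cells of the YFP+ sort, differences of -1.61 (adjusted p = 0.326 and 0.0445, edgeR) and -1.70 (0.428 and 0.00453).

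Gbp2 was 0.58 in YFP+ naive B-like and -1.72 in GCB-like cells, a difference of -2.28 (adjusted p = 0.486 without and 0.000469 with the block, edgeR). Usp18 was 1.74 and -0.58 in the same classes, a difference of -2.18 (adjusted p = 0.675 and 0.0105, edgeR). The Usp18 levels in YFP+ naive B-like cells were low and close between the genotypes in the first batch, so its estimate there rested mostly on the second cKO library. In total splenocytes, Ifit2 was 0.67 in naive B-like and -0.81 in CD4 T cells, a difference of -1.51 (adjusted p = 0.257 and 0.00456, edgeR).

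The following differences were not tested. Ifit2 was -0.81 in CD4 T and 0.57 in CD8 T cells. Oasl1 was -0.63 in total naive B-like, -0.57 in CD4 T and 0.64 in monocyte and macrophage-like cells. Oasl2 was 0.99 in pre-GCB-like and -1.0 in GCB-like cells, and Usp18 was 1.33 in pre-GCB-like and -0.58 in GCB-like cells. The Oasl2 levels in pre-GCB-like cells lay near the floor and were nearly equal between the genotypes in the second batch, so its direction there is uncertain.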

How the results depend on the processing

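Counts of called members depended on the fit more than on the cell filter, doublets or immunoglobulin genes. With batch, or the library, as a replicate block, called members numbered 14 in total naive B-like, 20 in CD4 T, 10 in CD8 T, 1 in cDC-like, 8 in YFP+ naive B-like, 16 in pre-GCB-like and 9 in GCB-like cells, 2 and 18 between the sorts of control and cKO, 1 for genotype by sort, 6 for genotype by class, and 10 and 7 in the added interactions with pre-GCB-like and GCB-like cells. DESeq2 called 2 in total naive B-like, 2 in CD4 T and 2 in YFP+ naive B-like cells and 1 for genotype by class, beside 1.63%, 5.62%, 2.60% and 2.04% of all genes in those fits. Without the filter on low counts there were 2, 6, 4, 6, 13 and 5 in total naive B-like, CD4 T, CD8 T, YFP+ naive B-like, pre-GCB-like and GCB-like cells, and 2 for genotype by class, beside 0.980%, 5.91%, 1.43%, 2.85%, 11.2%, 2.61% and 2.32% of all genes. All 8 libraries in 1 model gave 2 in CD4 T cells (5.69% of all genes), and resolution 1.5 gave 8 in pre-GCB-like cells (11.6%).

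Leaving out 1 library, where the lone library left is assumed to vary like the other group, gave 1 to 3 called members in total naive B-like (3 without the first cKO total library, beside 2.97% of all genes), 0 to 5 in CD4 T (5 without the first cKO total library, beside 9.53% of all genes), 0 to 3 in CD8 T (3 without the same library, beside 2.54%), 0 to 1 in cDC-like (1 without the same library, beside 0.93%), 0 to 5 in YFP+ naive B-like (5 without the first cKO YFP+ library, beside 4.18%), 5 to 13 in pre-GCB-like and 1 to 8 in GCB-like cells (13 and 8 without the first control YFP+ library, beside 16.7% and 6.0%) and 0 to 1 between the sorts of cKO (1 without the first cKO YFP+ library, beside 1.54%). The median over members ranged from -0.0297 to 0.28 in YFP+ naive B-like cells and from -0.40 to 0.0267 between the sorts of cKO. Log2 fold changes that changed sign ranged in total naive B-like cells from -0.19 to 0.59 for Bst2, -0.35 to 0.25 for Gbp2 and -0.16 to 0.44 for Ifi47, and in CD4 T cells from -0.37 to 0.17 for Gbp2. In monocyte and macrophage-like cells they ranged from -0.11 to 1.48 (Ifit3), -0.76 to 1.64 (Isg15), -0.72 to 1.13 (Irf7), -1.01 to 0.61 (Oasl2), -1.02 to 0.83 (Zbp1) and -0.64 to 0.28 (Ifi47), and in cDC-like cells from -0.48 to 1.13 (Ifit3), -0.29 to 0.96 (Zbp1) and -0.12 to 0.43 (Parp14). In YFP+ naive B-like cells they ranged from -0.63 to 0.70 (Ifit3), -0.84 to 0.45 (Oasl2) and -0.42 to 0.32 (Bst2). Between the control sorts they ranged from -1.10 to 0.22 (Ifit3), -0.63 to 0.00907 (Isg15), -0.95 to 0.34 (Oasl2), -0.31 to 0.49 (Bst2), -0.34 to 0.22 (Ifi47) and -0.67 to 0.0710 (Parp14), and between the cKO sorts from -0.51 to 0.42 (Zbp1), -0.50 to 0.0535 (Igtp) and -0.29 to 0.30 (Ifi47). Over all B-lineage cells of total splenocytes, Ifit3 was -0.00999 and Isg15 -0.48. Outside the Tfh-like clusters, Igtp was 0.0708 and Ifi47 0.0604, and at resolution 1.5 Gbp2 was -0.0454 in monocyte and macrophage-like cells. The cause was not tested.

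Differences in interferon-high shares, in percentage points, ranged on leaving out 1 library from -0.728 to 3.35 in monocyte and macrophage-like cells, -0.447 to 1.51 in cDC-like cells, -0.196 to 0.193 in YFP+ naive B-like cells and -0.285 to 0.105 between the control sorts. At least 2 genes gave -0.396 in cDC-like cells, and in YFP+ naive B-like cells at least 5 genes gave 0.0996, no thinning 0.460 and doublets removed 0.00437. Sign changes of uncalled values within 1 SE are not counted here. Calls in pre-GCB-like cells that were lost were Slfn5 with doublets removed, at resolution 1.5, in the model of all 8 libraries and without the second cKO YFP+ library, Ifi203 without that library, and Irgm1 in the model of all 8 libraries. Few cells limit the monocyte and macrophage-like, cDC-like and cKO GCB-like sums.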
